A study of Mus musculus with 55 samples.

Results

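The regions described here are stretches of the genome of liver PRM tumours where the methyltransferase KMT2C, or the histone mark H3K4me1, was found in both of its libraries. The 4 peak lists, 2 for KMT2C and 2 for H3K4me1, were merged into 127565 union regions, in which peaks sharing at least 1 bp form 1 region. KMT2C-only regions had a peak of both KMT2C libraries and of neither H3K4me1 library, and there were 21374 of them (16.8% of the union). H3K4me1-only regions were the reverse, and there were 7498 (5.88%). Shared regions had a peak of all 4 libraries, and there were 12311 (9.65%). The other 86382 regions had a mixed pattern, most of them with a peak of 1 KMT2C library alone.

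KMT2C, also called MLL3, is a large enzyme that works in a complex with UTX (Kdm6a), PA1 (Pagr1a), PTIP (Paxip1) and NCOA6, and is best known for placing a single methyl group on lysine 4 of histone H3. That mark, H3K4me1, is typical of enhancers and of the flanks of active promoters, while the nucleosomes next to the start of an active gene usually carry H3K4me3. The enzyme's peaks and its mark need not lie on the same bases, since the mark can persist, be carried further to H3K4me3, or be placed by the related enzyme KMT2D.

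The 4 libraries belong to a set of 55 mouse samples on small cell lung cancer, a neuroendocrine tumour that often spreads to the liver, here grown from edited lung organoids. PRM tumours carried guides against Trp53 and Rb1 and the retroviral transgene MSCV-Myc, and grew in recipient mice after injection into the left lung lobe. All 4 liver samples had this genotype label, so no sample of unedited tissue alone enters the comparison. The label describes the injected cells, and the part of recipient mouse cells in the tumours was not measured. The 4 samples were profiled by CUT&Tag, in which an antibody directs a transposase to cut the chromatin around its target. PRMK tumours, used below only as a further readout, also carried a guide against Kmt2c, and their KMT2C libraries differ in a further guide, which targets Meis2 in replicate 1 and is scrambled in replicate 2. The labels do not say whether replicates came from separate mice, nor whether a KMT2C and an H3K4me1 library came from the same tumour. The protocol given with the KMT2C liver samples names lung PRMK material only, so their tissue rests on the title and source labels.

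The smallest p that exact permutation of 2 libraries against 2 allows is 0.33, and regions of 1 library are not replicates. The comparisons below are therefore counts and levels in each library, without a test. Sequence depth is unknown, since the lists give peaks and signal but no read totals.

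Promoter sequences illustrate the classes of gene start. Each line gives the 200 bases before a start from RefSeq on GRCm38.p6, written 5′ to 3′ on the gene's strand, with CpG dinucleotides in capitals. Nkx2-1, a lung lineage transcription factor (chr12:56536909-56537108, minus strand), and Kmt2c itself (chr5:25498784-25498983, minus strand) had KMT2C-only starts. Chga, which encodes the granule protein chromogranin A (chr12:102554741-102554940, plus strand), had a shared start. Calca, which encodes calcitonin and CGRP (chr7:114636358-114636557, minus strand), had an H3K4me1-only start.
Nkx2-1: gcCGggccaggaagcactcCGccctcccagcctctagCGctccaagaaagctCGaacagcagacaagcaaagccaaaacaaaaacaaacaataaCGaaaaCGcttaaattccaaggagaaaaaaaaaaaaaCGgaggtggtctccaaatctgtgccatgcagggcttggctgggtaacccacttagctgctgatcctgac
Kmt2c: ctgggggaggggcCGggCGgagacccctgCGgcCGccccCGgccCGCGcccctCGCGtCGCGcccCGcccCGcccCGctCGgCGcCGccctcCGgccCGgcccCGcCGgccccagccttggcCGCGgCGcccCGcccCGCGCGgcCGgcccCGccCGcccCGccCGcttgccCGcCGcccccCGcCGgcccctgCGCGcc
Chga: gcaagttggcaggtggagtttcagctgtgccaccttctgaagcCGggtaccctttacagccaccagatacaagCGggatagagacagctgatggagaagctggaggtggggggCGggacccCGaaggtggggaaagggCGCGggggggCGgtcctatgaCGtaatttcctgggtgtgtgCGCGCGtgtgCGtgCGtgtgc
Calca: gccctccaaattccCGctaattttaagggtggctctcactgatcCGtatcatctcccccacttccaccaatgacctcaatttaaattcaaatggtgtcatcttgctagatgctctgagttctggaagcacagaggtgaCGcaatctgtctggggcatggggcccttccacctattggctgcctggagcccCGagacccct
The stretches hold 7, 39, 13 and 4 CpG dinucleotides in that order.

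The 2 antibodies gave lists of different shape. The KMT2C lists held 65201 peaks in replicate 1 and 113129 in replicate 2, with median lengths of 1356 and 1015 bp. The H3K4me1 lists held 29176 and 37784 peaks, with median lengths of 2473 and 2847 bp. KMT2C peaks were thus more numerous, shorter and lower, with a median highest signal of 10 and 8 against 22 and 20 for H3K4me1. H3K4me1 replicate 1 lay almost wholly within replicate 2, with 97.1% of its peaks overlapping, and 67.7% the other way. KMT2C was less alike between replicates, with 68.5% of replicate 1 peaks overlapping replicate 2 and 42.1% the other way. Across antibodies, 23.7% to 38.3% of KMT2C peaks overlapped an H3K4me1 list, and 47.2% to 62.1% of H3K4me1 peaks overlapped a KMT2C list.

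**Figure D1:**
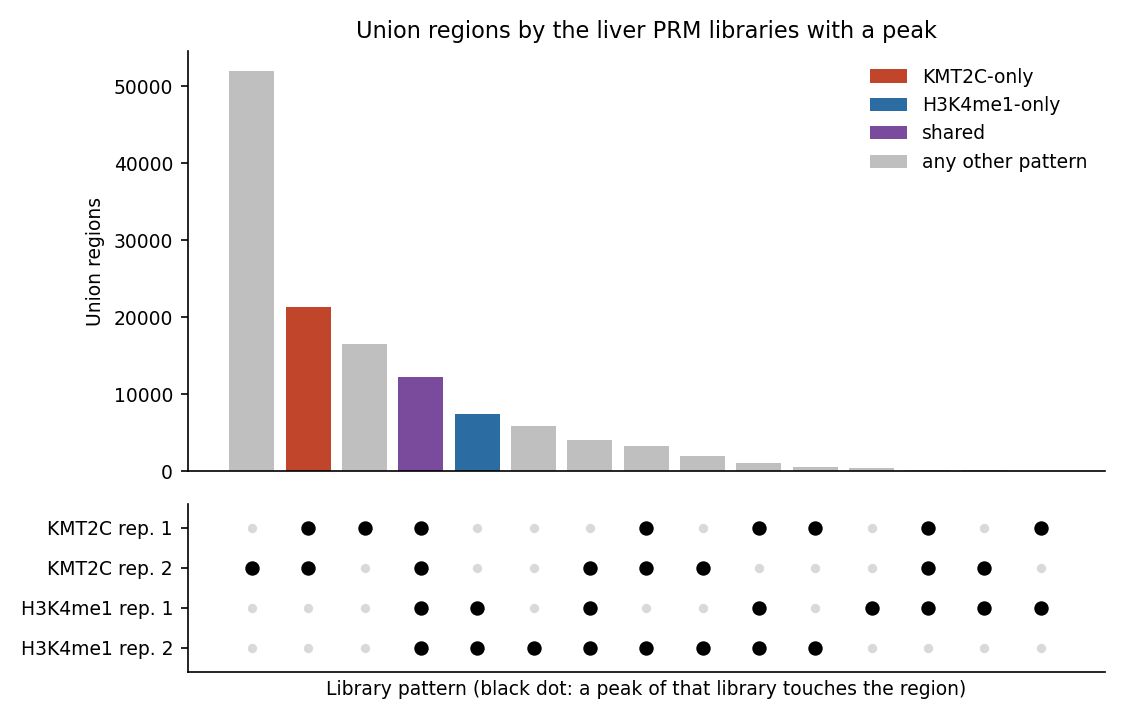
Bars give the number of union regions for each of the 15 library patterns, and black dots below mark the libraries with a peak. The tallest bar is the pattern with KMT2C replicate 2 alone, at 52018 regions, against 21374 KMT2C-only, 12311 shared and 7498 H3K4me1-only regions.

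Of the 37201 regions with KMT2C in both libraries, 57.5% had no H3K4me1 peak and 33.1% had one in both libraries. Of the 24964 regions with H3K4me1 in both libraries, 30.0% had no KMT2C peak and 49.3% had one in both. The split moved with total signal, which sums over a peak's length. When regions with both KMT2C peaks were ordered in 5 equal groups by their mean percentile of total signal, the share without H3K4me1 was 77.6% in the weakest group and 30.6% in the strongest. The share of H3K4me1 regions without KMT2C was 47.9% in the weakest group and 9.03% in the strongest. The groups also differed in length, with medians of 1519 bp in the weakest and 5487.5 bp in the strongest KMT2C group, and of 2453 and 9235 bp for H3K4me1, so strength and length cannot be told apart here. List length also enters the counts directly. When each list was cut to the 29176 strongest peaks, there were 8053 KMT2C-only, 12828 H3K4me1-only and 7530 shared regions, so the order of the first pair was reversed. Single libraries moved the counts too: there were 76685 KMT2C-only regions without KMT2C replicate 1 and 39767 without KMT2C replicate 2, and 11673 and 13621 H3K4me1-only regions without KMT2C replicate 2 and without H3K4me1 replicate 1.

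Length differed as well. The median region was 1725 bp long in the KMT2C-only class, 2976 bp in the H3K4me1-only class and 5566 bp in the shared class. Counted by bases, 29.0 Mb lay under both KMT2C libraries and no H3K4me1 library, 47.9 Mb under both H3K4me1 libraries and no KMT2C library, and 24.6 Mb under all 4, of 286 Mb covered. By bases, H3K4me1 without KMT2C therefore covered more of the genome than the reverse. Inside the shared regions, 89.9% held a base covered by all 4 libraries. In the median shared region, 98.7% of the bases under both KMT2C libraries lay inside H3K4me1, while 40.3% of the bases under both H3K4me1 libraries lay inside KMT2C. KMT2C peaks in these regions were thus mostly nested in a wider H3K4me1 domain. Some single-antibody regions had the other antibody nearby: 10.1% of KMT2C-only regions had an H3K4me1 peak within 1 kb, and 12.2% of H3K4me1-only regions a KMT2C peak, and within 5 kb these shares were 30.5% and 40.8%.

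KMT2C-only regions, as called from both libraries, lay nearest to genes. Their median distance to the closer end of any gene was 2694 bp, against 4545 bp for shared and 14738 bp for H3K4me1-only regions, and 7005 bp over the whole union. The KMT2C-only median was 5988 bp without KMT2C replicate 1 and 4788 bp without KMT2C replicate 2, where the share within 1 kb of a start was 11.5% and 16.5%. Shared regions then had medians of 5821 and 5128 bp and shares of 18.2% and 19.9%, so by share their order with KMT2C-only regions was reversed in both settings and by median in the first, while H3K4me1-only regions stayed farthest. With all libraries, a gene start lay within 1 kb of 25.7% of KMT2C-only, 21.9% of shared and 5.38% of H3K4me1-only regions, beside 11.4% of the union. At the other extreme, 42.2% of H3K4me1-only regions were more than 50 kb from any start, against 17.7% of KMT2C-only and 24.5% of shared regions. Gene ends, the places where transcripts stop, showed a smaller spread. A gene end lay within 1 kb of 10.3% of KMT2C-only, 16.7% of shared and 5.50% of H3K4me1-only regions, beside 7.78% of the union. Being inside a gene did not separate the single-antibody classes, with the midpoint in a gene for 65.0% of both and for 72.2% of shared regions.

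**Figure D2:**
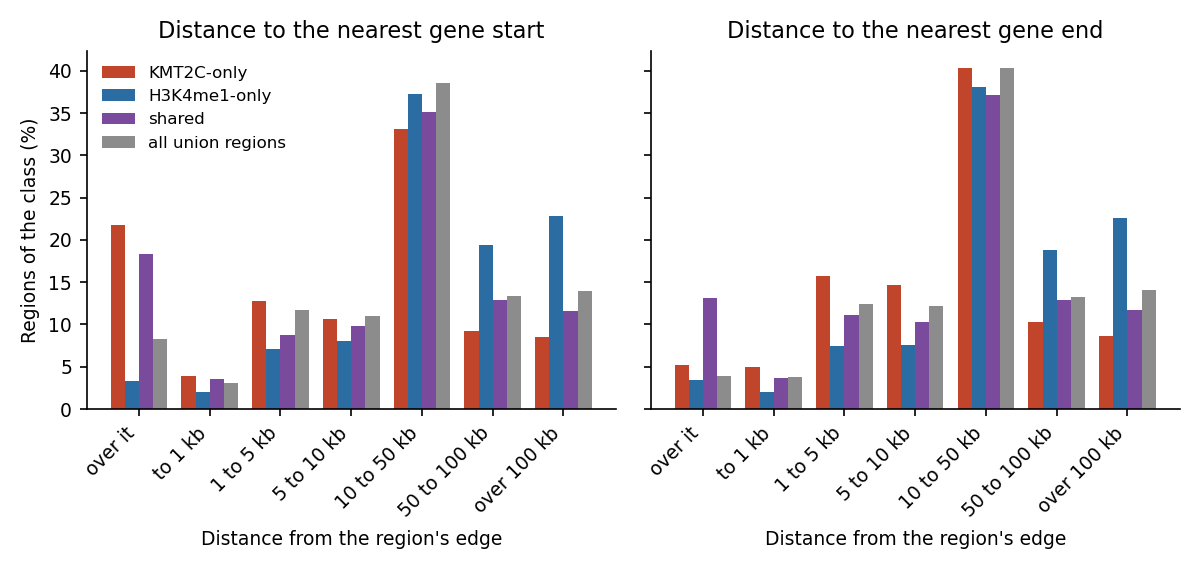
Bars give the percent of each class of region by distance from its edge to the nearest gene start (left) and gene end (right), with all union regions in grey. KMT2C-only and shared regions cover a start in 21.8% and 18.4% of cases against 3.37% of H3K4me1-only regions, and H3K4me1-only bars are the tallest beyond 50 kb.

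The position of the shared class depended on its length. Measured from the region's midpoint, a start lay within 1 kb of 21.0% of KMT2C-only, 5.30% of shared and 2.08% of H3K4me1-only regions, beside 7.13% of the union. KMT2C-only regions stayed well above the union by this measure, whereas shared regions fell below it. With protein-coding genes alone, the shares from the edge were 23.2%, 16% and 2.46%, beside 8.90%. A gene end lay within 1 kb of the midpoint of 4.79% of KMT2C-only, 3.97% of shared and 2.22% of H3K4me1-only regions, beside 3.67% of the union. For gene ends, the order of KMT2C-only and shared regions was thus the reverse of that from the edge. Starts were available for 27025 genes on every chromosome but 18, so start and end distances leave that chromosome out.

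Around gene starts the antibodies traced different shapes. A KMT2C peak covered the start itself in 31.9% of genes in replicate 1 and 37.8% in replicate 2. At 2 kb before the start these shares were 11.7% and 15.1%, and at 2 kb after it 12.5% and 15.6%. H3K4me1 covered the start in 6.02% and 11.2% of genes and was more frequent at 2 kb after it, at 8.84% and 14.8%. KMT2C was thus centred on the start and H3K4me1 was shifted into the gene. At gene ends neither antibody had a peak of this kind: KMT2C covered 9.96% and 12.5% of ends, and H3K4me1 6.04% and 9.53%.

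**Figure D3:**
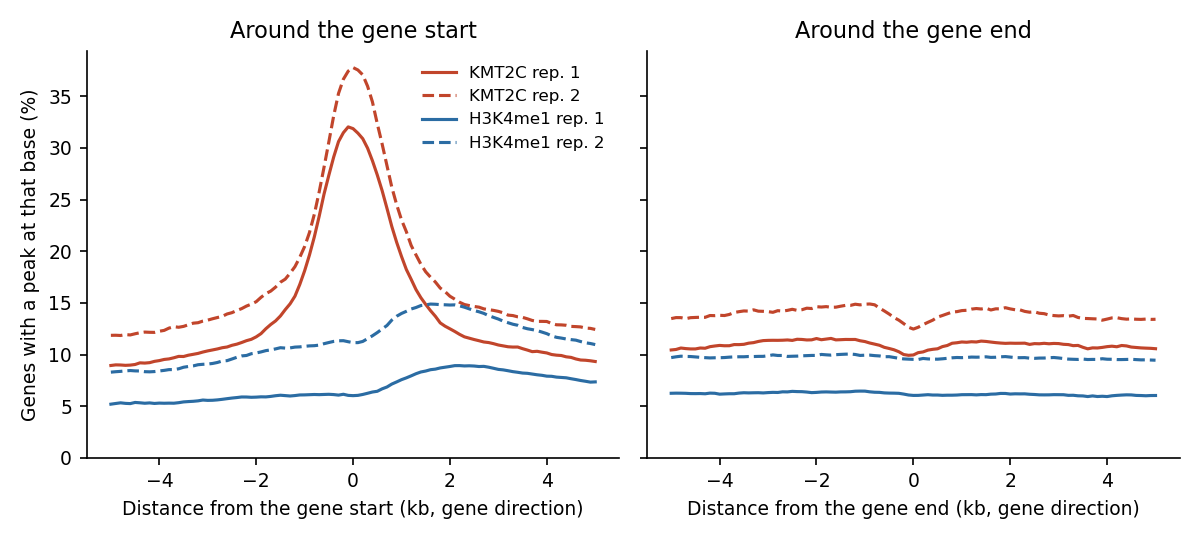
Lines give the percent of 27025 genes with a peak at each base, every 100 bp from 5 kb before to 5 kb after the gene start (left) or gene end (right), for each library. Both KMT2C lines rise to 31.9% and 37.8% at the start, where the H3K4me1 lines stand at 6.02% and 11.2%, and all 4 lines are nearly flat around the gene end.

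At the level of genes, 6281 starts (23.2% of 27025) were KMT2C-only within 1 kb, 473 (1.75%) were H3K4me1-only and 1898 (7.02%) were shared, while 12430 had no peak of any library. H3K4me1-only starts numbered 817 without KMT2C replicate 2 and 861 without H3K4me1 replicate 1, and the latter setting gave 3499 shared starts. Protein-coding genes made up 84.5% of the KMT2C-only starts, 64.5% of the shared and 34.9% of the H3K4me1-only starts, beside 64.7% of all starts. Most H3K4me1-only starts thus belonged to genes not annotated as protein-coding. Of 17492 protein-coding starts, 5305 were KMT2C-only, 165 H3K4me1-only and 1225 shared. The KMT2C-only share was thus higher among protein-coding starts than the 23.2% over all starts, which is the background given for the gene lists below.

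The 3 classes of start differed in sequence. CpG dinucleotides are depleted in most of the mouse genome and kept at CpG-island promoters, which a ratio of observed to expected CpG describes. Over the 300 bases from 250 before to 50 after the start, the median ratio was 0.788 at KMT2C-only, 0.568 at shared and 0.256 at H3K4me1-only starts, beside 0.389 over all starts. A ratio above 0.6 was found at 75.8%, 48.1% and 11.8% of these classes, beside 36.5% of all. The letters GGGCGG, the core recognised by SP and KLF factors, were present on either strand in 65.2% of KMT2C-only, 51.6% of shared and 17.5% of H3K4me1-only promoters, beside 35.9% of all. TATAAA was distributed the other way, at 6.0%, 8.22% and 15.2%, beside 14.2% of all. None of these matches is a measured binding site.

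The lung lists give readouts that the classes were not built on. Lung PRM H3K4me3, the mark of active starts, had a peak in both libraries at 30.2% of KMT2C-only, 26.3% of shared and 5.96% of H3K4me1-only regions, beside 12.5% of the union. Lung PRM H3K4me2 was at 28.9%, 39.0% and 9.39%, beside 14%. Lung peaks of the higher methylation states therefore lay over a larger share of KMT2C-only than of H3K4me1-only liver regions. Neither H3K4me2 nor H3K4me3 was profiled in liver. Lung PRM H3K4me1 itself was found at 0.716% of KMT2C-only, 89.9% of shared and 77.6% of H3K4me1-only regions, beside 19.1%. The absence of H3K4me1 in KMT2C-only regions and its presence in the other classes was thus repeated in a separate pair of lung libraries.

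Position split the KMT2C-only class. Of its 5315 regions within 1 kb of a start, 86.3% had lung PRM H3K4me3 and 56.6% lung PRM ATAC peaks, which mark open chromatin. Of the 15398 without a start nearby, 10.8% had H3K4me3, 10.6% H3K4me2, 5.92% ATAC and 0.727% H3K4me1. Each of these readouts was thus absent from most distal KMT2C-only regions. They were also weaker, with a median highest KMT2C signal of 10 and 9 in the 2 libraries against 16 and 18 near starts. Distal shared regions, which were longer (median 5182 against 1668 bp), had lung PRM ATAC at 22.4%, H3K4me2 at 28.7% and H3K4me3 at 14.2%.

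KMT2C itself recurred more in the shared class. Lung PRM KMT2C, from lists of only 9949 and 16681 peaks, was found in both libraries at 34.2% of shared, 11.7% of KMT2C-only and 1.05% of H3K4me1-only regions, beside 6.14% of the union. In the lung libraries labelled PRMK, the lists were much longer, at 187682 and 134561 peaks. A KMT2C peak of both was found at 69.6% of shared, 50.7% of KMT2C-only and 20.8% of H3K4me1-only regions, beside 28.1% of the union. Lung tumours with a guide against Kmt2c thus had more peaks with the KMT2C antibody than lung PRM tumours, which lack it. The liver PRM lists, also without that guide, held 65201 and 113129 peaks, so list length differed within the PRM genotype too. What the peaks of tumours with the guide hold was not tested, and the same antibody made the liver lists.

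A midpoint is a single base, so a short peak elsewhere in a long region is missed. Median peak lengths were 420 and 470 bp for lung PRM ATAC and 651 and 751 bp for lung PRMK KMT2C. By the midpoint of the region, 2 orders changed, and a bias against long regions was not excluded. Lung PRM ATAC was then at 10.1% of KMT2C-only and 4.31% of shared regions, and lung PRMK KMT2C at 27.4% and 18.8%. The 2 lung PRM ATAC lists also differed greatly in length, with 64575 and 19815 peaks, and replicate 1 alone touched 70.1% of shared regions against 32.9% for replicate 2. The liver PRM ATAC lists held 313 and 120 peaks, too few to describe the classes.

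**Figure D4:**
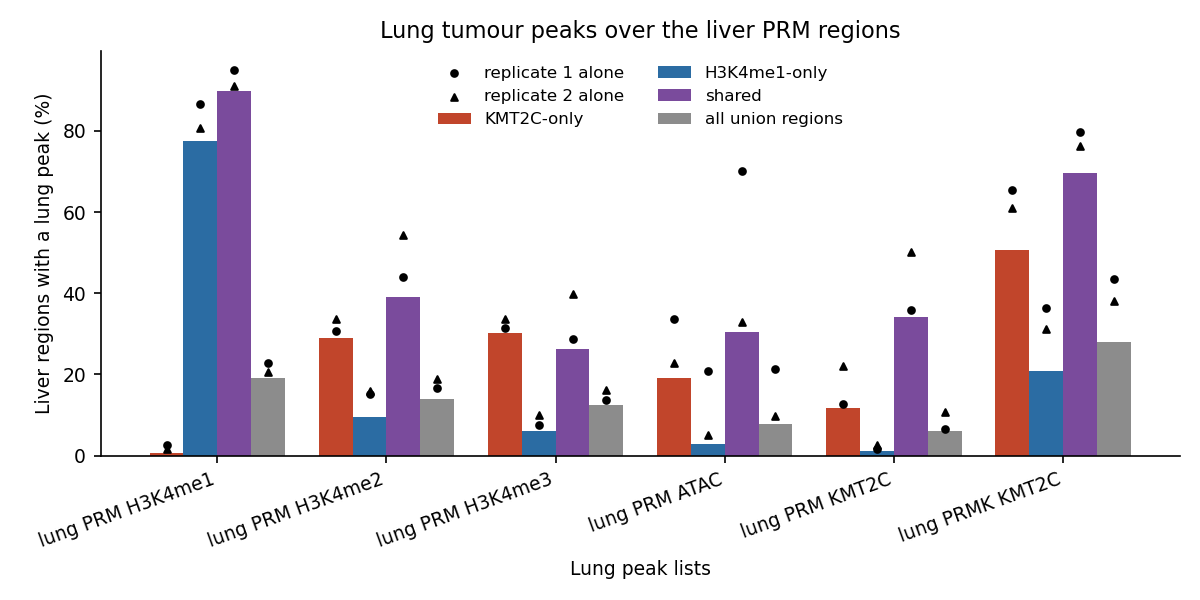
Bars give the percent of liver regions of each class with a peak in both libraries of a lung group, and circles and triangles give replicates 1 and 2 alone. Lung PRM H3K4me1 is at 0.716% of KMT2C-only regions against 77.6% and 89.9% of H3K4me1-only and shared regions, and lung PRM H3K4me3 at 30.2%, 5.96% and 26.3%.

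RNA was available for lung tumours only, in CPM, counts scaled to the same library total. The median gene with a KMT2C-only start stood at 40.2, 36.6 and 37.4 CPM in the 3 lung PRM libraries. Genes with a shared start stood at 38.7, 29.0 and 23.8 CPM, those with an H3K4me1-only start at 5.99, 2.63 and 1.50 CPM, and those with no peak at 2.33, 0.818 and 1.66 CPM. Genes with KMT2C or shared starts thus had higher levels than the other 2 groups in every library, with means of 38.0 ± 1.89 (SD, n = 3) and 30.5 ± 7.58 against 3.37 ± 2.34 and 1.60 ± 0.758. The table had a row for 82.0% of KMT2C-only, 61.6% of shared and 22.0% of H3K4me1-only starts, so the H3K4me1-only level rests on 104 genes. The third of these libraries stood apart for neuroendocrine genes: Chga was at 1384, 791 and 3.33 CPM and Nkx2-1 at 691, 598 and 0 CPM.

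Among the genes targeted by a guide or carried as a transgene in this set of samples, Trp53, Kmt2c and Meis2 had KMT2C-only starts. Of these, only Trp53 was targeted in PRM tumours. At the Trp53 start, the highest KMT2C signal was 56 and 59, at Kmt2c 20 and 33, and at Meis2 26 and 21, with no H3K4me1 peak in either library. Meis2 is a homeodomain factor whose RNA was at 0.922, 1.33 and 16.1 CPM in the lung PRM libraries. Its start was classed in liver tumours, so these lung values do not give its RNA level there. Rb1 and Myc had no start in the table. Within 10 kb of the gene, Rb1 had 3 H3K4me1-only regions and no region of the other classes, and Myc 1 KMT2C-only region. Rb1 lies on chromosome 14, where KMT2C peaks were scarce, as given below.

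KMT2C-only starts were frequent among genes of the chromatin machinery, as among the cell cycle, housekeeping and adhesion genes below. In the KMT2C/KMT2D complex, 4 of 9 members with a start were KMT2C-only (Kmt2c, Kmt2d, Kdm6a and Paxip1), and Pagr1a was shared. The KMT2C-only share was 23.2% over all starts. It was higher among genes with RNA counts (5148 of 12059), and close to that of the complex. At Kdm6a, the H3K27 demethylase of the complex, the highest KMT2C signal was 32 and 44. At Pagr1a it was 39 and 45, with H3K4me1 at 21 and 32. Among the other H3K4 methyltransferases, 3 of 4 were KMT2C-only, including Kmt2a (55 and 74) and Setd1a (48 and 29), which place H3K4me3. Among the H3K4 demethylases, 3 of 4 were, with Kdm1b at 66 and 82 and Kdm1a, which encodes LSD1, at 11 and 14. Of 10 Polycomb genes, which act in H3K27 methylation and gene silencing, 6 were KMT2C-only and none was shared, with Eed at 29 and 34 and Jarid2 at 34 and 32. At the gene's outer end, Cbx7 of this list had no peak and the methyltransferase partner Hcfc1, mixed at its listed start, was KMT2C-only.

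Of 8 DNA methylation genes, 4 were KMT2C-only and 2 shared, beside 23.2% and 7.02% of all starts. Uhrf1, which recruits the maintenance methyltransferase, had KMT2C at 33 and 28, and the glycosylase gene Tdg at 11 and 15. Tet3, a 5-methylcytosine oxidase, was shared, with KMT2C at 28 and 29 and H3K4me1 at 41 and 57. Dnmt3a, a de novo methyltransferase, was shared at the start listed in the promoter table, with KMT2C at 27 and 26 and H3K4me1 at 20 and 28. At the outermost annotated end of that gene no library had a peak, so its class depends on which start is used.

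The neuroendocrine genes divided by role. Of 10 lineage and subtype transcription factors with a start, 7 were KMT2C-only and none was shared or H3K4me1-only. They were Nkx2-1 (highest KMT2C signal 70 and 58), Prox1 (32 and 40), Foxa1, Mycl, Isl1, Sox2 and Atoh1. Of 11 effector genes, which encode granule and neuronal proteins, 2 were KMT2C-only, 2 shared and 1 H3K4me1-only. Chga had KMT2C at 32 and 27 and H3K4me1 at 72 and 102. Chgb, another granin, had KMT2C at 20 and 18 and H3K4me1 at 12 and 16. Uchl1, a neuronal ubiquitin hydrolase, was KMT2C-only at 28 and 22, and so was Scg3, a granule protein, at 12 and 16, although Scg3 was mixed at its outermost end. Calca had H3K4me1 at 21 and 27 and no KMT2C peak.

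The non-neuroendocrine list of Notch and YAP genes had 2 KMT2C-only and 2 shared starts of 8, beside 23.2% and 7.02% of all starts, so the KMT2C-only share was near that background. The receptor gene Notch1 was shared, with KMT2C at 11 and 12 and H3K4me1 at 36 and 51, and so was the ligand gene Jag1 (17 and 22, then 20 and 66). The coactivator Yap1 (12 and 13) and the receptor kinase Epha2 (8 and 25) were KMT2C-only. Of 7 MEIS, PBX and TGIF homeodomain genes, 5 were KMT2C-only, with Tgif1 at 30 and 32. Of 9 Hoxa genes, 1 was, Hoxa13 at 11 and 11, and 6 had no peak, and none of 3 Hoxb genes had any, although Hoxb8 was mixed at its outer end. The HOX starts thus stood below the share over all starts, and the TALE partners above it. Within 10 kb of the gene, however, 10 of 11 Hoxa genes had a KMT2C-only region, against 0 of 10 Hoxb genes. Hoxa genes lie close together, so the same region can count for several of them.

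Cell cycle, housekeeping and adhesion genes were read beside the same background of 23.2% KMT2C-only and 7.02% shared starts. That background holds genes of every type, and among protein-coding starts alone the KMT2C-only share was higher (5305 of 17492). Of 13 cell cycle genes, 6 were KMT2C-only and 3 shared, with E2f3 at 56 and 59, the helicase gene Mcm2 at 23 and 35, and E2f1 shared at 20 and 25 for KMT2C and 61 and 62 for H3K4me1. The kinase gene Aurka was shared, at 31 and 31 and at 16 and 22. Of 10 housekeeping genes, 5 were KMT2C-only, including Tbp (36 and 29) and Rps6 (19 and 19), and Gapdh was shared (60 and 69, then 36 and 34). Of 10 adhesion and metastasis genes, 5 were KMT2C-only, including Nrp2, a semaphorin receptor (21 and 42), and Vim (14 and 22). Snai1, a repressor active in epithelial-mesenchymal transition, was shared (11 and 12, then 24 and 30).

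Within 1 kb of the start, 46.0% of all genes had no peak of any library. Of 13 hepatocyte genes with a start, 10 had none there, Alb among them, while Apoa1 (17 and 15) and Apoa2 (28 and 35) were KMT2C-only. Tat, without a peak at its listed start, was H3K4me1-only at its outer end. None of 6 fibroblast and stellate genes, and none of 8 olfactory and vomeronasal receptors, had a peak in this window, although Des had 1 region of each class, Pdgfra 1 KMT2C-only region and Vmn2r1 1 shared region within 10 kb of the gene. Of 7 immune genes 6 had no peak at the start, and Cd68 was mixed. Of 6 lung epithelial genes none fell in the 3 classes at the start. Within 10 kb of the gene, 4 of 10 immune genes and 3 of 10 lung epithelial genes had a KMT2C-only region. A shared region lay there for 5 of 10 lung epithelial and 0 of 10 immune genes. The endothelial receptor gene Tek was shared at low signal (10 and 8, then 19 and 19), and the other 3 endothelial genes had no peak at the start, although Stab2 had 5 H3K4me1-only regions and Kdr 1 within 10 kb of the gene. In bulk tissue, fewer cells of a type and less signal per cell cannot be told apart. The part of hepatocytes in the Apoa1 and Apoa2 peaks was not tested.

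The strongest regions of each class were of different kinds. Among the 8 KMT2C-only regions with the highest mean signal percentile were those over the starts of Peg3, an imprinted zinc finger gene (chr7:6726963-6732980, highest signal 123 and 141), and of histone genes next to H2ac4 (chr13:23750419-23764775, 86 and 90) and H2bc23 (chr13:21803780-21814593, 63 and 83). The first by mean percentile lay on the Y chromosome (chrY:90824082-90830697, 377 and 401), 6085 bp from LOC108168645. The second, 5718 bp from an end of Efl1 (chr7:82770157-82772134), had the highest signal of the 8, at 939 and 1084. Among the 8 H3K4me1-only regions, the highest signal ran from 418 to 10658. It reached 9920 and 10658 over 1154 bp of chr2:98666180-98667333, which is 35266 bp from the nearest gene end, and 3450 and 3680 over chr9:3000001-3038340. These compare with a list median of 22 and 20. All 8 also had a peak of both libraries of H3K4me1, H3K4me2 and H3K4me3 in lung PRM and in lung PRMK. They were thus not particular to H3K4me1 among the lung marks, although none had KMT2C in both libraries of either lung group. The region chr2:98666180-98667333 also had a peak of both ATAC libraries in lung PRM, lung PRMK and liver PRM. The sequence of these regions was not examined. The strongest shared regions were long domains, such as 114561 bp inside the transcription factor gene Tcf4 (chr18:69368457-69483017; KMT2C 75 and 61, H3K4me1 86 and 105) and 38116 bp at the kinase gene Wnk2 (chr13:49108815-49146930; 84 and 67, then 137 and 212).

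Protein-coding starts with the highest mean percentile were read from the data after their values were known. Among KMT2C-only starts they included the circadian regulator Dbp (101 and 110) and the corepressor gene Sin3a (161 and 150). Among H3K4me1-only starts were Prom2 (225 and 279), the channel gene Hcn2 (63 and 109) and the phosphodiesterase gene Pde1c (76 and 103). Each value is the highest over the whole of a peak touching the window, so it need not lie at the start. The start of Kcnip3 (chr2:127522094), near that of Prom2 (chr2:127541417), had the same H3K4me1 values, 225 and 279. The Kcnip3 start was shared, with KMT2C at 53 and 80. Among shared starts were the retinoic acid receptor gene Rara (KMT2C 71 and 49, H3K4me1 136 and 159) and the antiproliferative gene Btg2 (58 and 47, then 132 and 163). The RNA of Pde1c was at 157, 252 and 19 CPM in lung PRM tumours, and that of Prom2 at 0.650, 0.256 and 51.6 CPM, so the 2 genes were in opposite order in the third library.

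Chromosomes differed in a way that touches the classes. Across the genome there were 2.23 KMT2C peaks for each H3K4me1 peak in replicate 1 and 2.99 in replicate 2. On chromosome 10 these ratios were 0.743 and 1.05, on chromosome 14 they were 0.964 and 1.39, and on X 1.06 and 1.42. Chromosome 10 held 955 and 1829 KMT2C peaks beside 1285 and 1745 H3K4me1 peaks, whereas chromosome 11 held 5927 and 9984 beside 2125 and 2636. On chromosome 5, the ratios were 1.06 and 1.53 before 110 Mb and 3.36 and 4.28 after it, a position chosen after the values were seen. In lung PRM tumours the ratio on chromosome 10 was likewise low, at 0.142 and 0.285 against 0.327 and 0.601 over the genome, and on chromosome 14 at 0.112 and 0.257. In the lung libraries labelled PRMK it was 3.26 and 2.80 on chromosome 10 against 4.93 and 3.65 over the genome, while chromosome 14, at 5.10 and 4.03, was not low. The share of H3K4me1-only regions was 20.1% on chromosomes 10, 14 and X together and 5.14% elsewhere. What set these chromosomes apart was not tested. Without them, a start lay within 1 kb of 24.7% of KMT2C-only, 21.7% of shared and 5.10% of H3K4me1-only regions, so the order of the classes was the same.

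**Figure D5:**
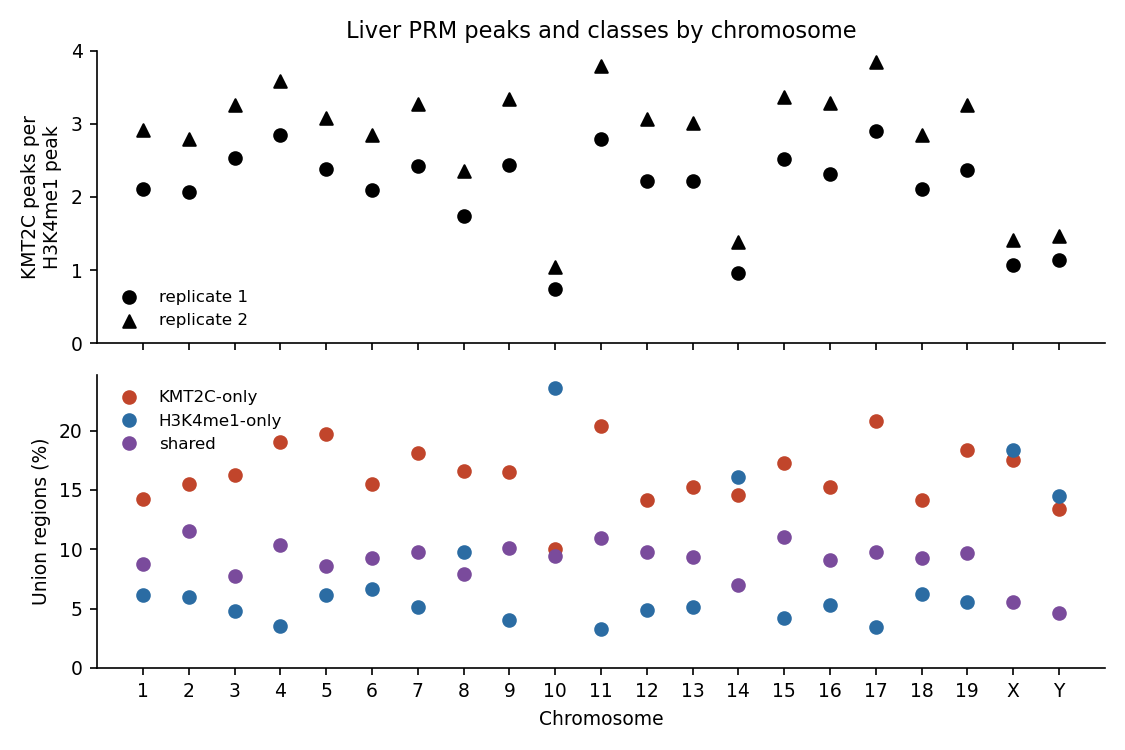
The upper panel gives KMT2C peaks per H3K4me1 peak on each chromosome in liver PRM, for replicates 1 and 2, and the lower panel the percent of union regions in each class. Chromosomes 10, 14 and X lie at ratios of 0.743 to 1.42 with H3K4me1-only shares of 23.6%, 16.1% and 18.4%, and the few regions of Y lie near them.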

How the data were processed

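Peak lists of 2 liver PRM KMT2C and 2 liver PRM H3K4me1 CUT&Tag samples were compared. Per the submitters' processing notes, Bowtie2, SEACR and mm10 are named for them. The control, threshold and scaling behind the calls are not stated in the labels or notes. The deposited lists give total and highest signal over each peak, in a unit the authors do not state. The deposited ATAC lists carry a score per peak, used only to drop peaks scored below 0. Deposited RNA counts per gene (STAR 2.6.0a, GRCm38, per the submitters' processing notes) held 12013253 to 24123055 counts per library and were scaled to CPM by library total.

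Analysis used Python 3.11.15, numpy 2.4.6, pandas 2.3.3 and matplotlib 3.10.9. Peaks sharing at least 1 bp were merged, and a region or a window of 1 kb each side of a gene start was classed by the libraries touching it. Coordinates are mm10, which is GRCm38, and genes came from RefSeq on GRCm38.p6: 49943 with coordinates, 27025 with a start and strand, and 161 of 232 distinct members of the gene lists with a start. The gene start is the listed start nearest the gene's outer end. The outer end was used first, and the definition was changed after results with it had been seen, so that each start matches its promoter sequence. The change gave another class to 1101 genes (4.07%) and 7 of the 161 list members, and the outer end is kept as an alternative. Other members and lists were chosen with earlier results of these data known.

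By rule, the regions to name came from the 8 of each class with the highest mean percentile of total signal. The genes were the 2 highest members per list and class. All genes targeted by a guide or carried as a transgene in the set (Trp53, Rb1, Myc, Kmt2c and Meis2) were added by the same rule. Some of the 8 are described, and other genes were added after their values were seen. Interval code was tested on simulated lists. Alternatives covered merging, coverage, list length, gene type, windows and leaving out each library.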

Additional observations from a re-analysis of the deposited data

How the results depend on the processing

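No setting was tried that changes a test, since none was made, and no paired analysis was possible because the classes come from no test. Of 163 recomputed values, 75 stayed within 1.5 times (counts) or 1 SD between the libraries (other values) and 88 moved. Values are given for KMT2C-only, H3K4me1-only and shared in that order. When peaks had to cover at least 50% of a region, the H3K4me1-only count was 13898 and the shared count 3080. The stronger 50% of each list by total signal gave 13697, 4225 and 6372 regions. Lists of equal size gave 8053, 12828 and 7530 regions and 879 H3K4me1-only starts. Their median distances to the closer end of any gene, whether start or end, were 0, 12640 and 2521 bp. Of these regions, 48.8%, 7.03% and 27.5% lay within 1 kb of a start. Leaving out 1 library at a time gave 21678 to 76685, 8660 to 13621 and 12948 to 16432 regions, and the KMT2C-only count was 76685 without KMT2C replicate 1 and 39767 without KMT2C replicate 2, while the H3K4me1-only count was 11673 without KMT2C replicate 2 and 13621 without H3K4me1 replicate 1. The medians to the closer end of any gene were then 2617.5 to 5988, 12961.5 to 14506.5 and 3875 to 5821 bp. The shares near a start were 11.5% to 26.3%, 4.56% to 6.83% and 18.2% to 24.0%. Gene starts were 6407 to 8646, 509 to 861 and 1995 to 3499.

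Protein-coding genes alone gave medians of 5348.5, 44708 and 14727 bp to the closer end of such a gene. With them, 2.46% of H3K4me1-only and 16% of shared regions lay near a start. From the midpoint the medians to the closer end of any gene were 3698, 16573 and 7921 bp. The shares near a start were 21.0%, 2.08% and 5.30%. A window of 5 kb gave 4395 shared starts. A peak of either lung library, in place of both, gave 3.32%, 89.5% and 96.2% for lung PRM H3K4me1, 35.3%, 21.7% and 59.3% for H3K4me2, and 34.9%, 11.6% and 42.0% for H3K4me3. The same setting gave 23.0%, 3.23% and 51.9% for lung PRM KMT2C, 37.6%, 23.2% and 72.7% for ATAC, and 75.7%, 46.6% and 86.5% for lung PRMK KMT2C. Genes of at least 1 CPM had mean levels of 40.2 and 8.57 CPM at KMT2C-only and H3K4me1-only starts, and 3.99 CPM where no library had a peak.

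The following were chosen after seeing the data. Without chromosomes 10, 14 and X, the H3K4me1-only regions had a median of 15454 bp to the closer end of any gene. Of them, 5.10% lay near a start and 8.76% had lung PRM H3K4me2. With the gene's outer end as its start, 5.26% of H3K4me1-only regions lay near one. Over the region's midpoint, lung PRM H3K4me1 was at 73.1% of H3K4me1-only and 79.4% of shared regions, and H3K4me2 at 7.36% and 27.2%. H3K4me3 was at 28.1%, 3.56% and 14%, lung PRM KMT2C at 14% of shared regions, ATAC at 10.1% of KMT2C-only regions, and lung PRMK KMT2C at 27.4%, 5.52% and 18.8%. The cause of these changes was not tested. The unknown depth limits every count, since a missing peak may be a weak one.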
